A study of Mus musculus with 2 samples.

Results

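The Sp family of transcription factors was examined in mouse embryonic stem cells (mESCs) cultured with LIF or with LIF plus CHIR99021 (CHIR). Its 8 genes, Sp1 to Sp8, were taken by name from the 30774 identifiers of the array table, and each matched 1 row. Sp9, the remaining gene of the family, was read alongside them. The LIF sample was labelled B6 mESCs treated with LIF and the LIF plus CHIR sample B6 mESCs treated with LIF/CHIR99021. Both were of strain B6, given as E3.5 embryo and inner cell mass, and grown in serum medium, and the treatment lasted 12 h. LIF is the cytokine that activates Stat3. CHIR inhibits the kinase GSK3 and thereby activates Wnt/β-catenin signaling. The dose of CHIR used for the arrays is not given in the sources used here, and the study's flow chart of the screen names 46C mESCs, another line, rather than B6. Total RNA of each condition was hybridized to 1 Illumina beadchip, so 2 arrays were compared, and their number limits the precision. No difference given here has a replicate check or a p-value, and what CHIR did cannot be told apart from how the cultures differed otherwise.

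Sp proteins share a run of zinc fingers at their C-terminal end that binds GC-rich DNA, such as the GC box, and a short motif before the fingers called the buttonhead box. Sp1 to Sp4 carry long glutamine-rich activation domains, whereas Sp5 to Sp9 have shorter N-terminal parts that resemble those of Klf proteins. Several of the shorter group act in patterning of the embryo, and Sp5 is known as a transcriptional target of Wnt/β-catenin signaling in the primitive streak and tail bud. On the array, 9 of 9 family genes were annotated with zinc ion binding, a term carried by 4.59% of all identifiers.

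β-catenin acts on DNA through TCF/LEF factors, whose binding sequence contains CTTTG, while Sp proteins bind GC boxes such as GGGCGG. The 250 bases before the annotated start of Sp5 and of Sp1 are shown because they differ in which of these motifs they hold. Both are from RefSeq, build GRCm38.p6, on the plus strand, at chr2:70474673-70474922 for Sp5 and chr15:102406066-102406315 for Sp1. Capitals mark CTTTG or its complement CAAAG in Sp5, and GGGCGG in Sp1.
Sp5: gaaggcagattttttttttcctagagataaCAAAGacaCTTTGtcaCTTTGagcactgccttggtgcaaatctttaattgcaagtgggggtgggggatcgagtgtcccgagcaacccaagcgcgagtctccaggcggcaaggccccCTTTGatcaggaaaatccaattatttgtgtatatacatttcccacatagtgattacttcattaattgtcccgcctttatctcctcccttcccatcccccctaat
Sp1: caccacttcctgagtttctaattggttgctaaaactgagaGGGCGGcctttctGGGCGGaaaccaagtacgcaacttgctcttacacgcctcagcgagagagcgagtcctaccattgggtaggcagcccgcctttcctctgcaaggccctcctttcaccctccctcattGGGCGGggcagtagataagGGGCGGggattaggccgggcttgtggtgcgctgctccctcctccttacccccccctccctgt

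Sp5 held 4 matches to CTTTG on either strand, which lie 220, 212, 204 and 104 bases before the start. At least 4 matches were found in 0.773% of the 32851 RefSeq windows of the same length. TCF/LEF factors prefer an A or T at each of the positions after CTTTG, and the longer forms searched were CTTTGAA or CTTTGAT and CTTTGTA or CTTTGTT. Sp5 held 2 of these, which overlap its CTTTG matches. The match nearest the start reads CTTTGAT, and the farthest reads CTTTGTT on the minus strand. At least 2 matches to the longer forms were found in 1.43% of windows. The second window of Sp8 and the window of Sp9 held 1 such match each, which 14.8% of windows held at least once. Sp5 held 0 matches to GGGCGG, a motif found at least once in 32.7% of windows. Sp1 held 0 matches to CTTTG and 4 to GGGCGG, a number reached by 4.09% of windows. Among the other family genes, windows were present for Sp2, Sp3, Sp4, Sp8 and Sp9, several of them with more than 1 start. Each of their windows held 0 or 1 match to CTTTG. Both windows of Sp3 and the window of Sp4 held between 2 and 5 matches to GGGCGG. The TTCNNNGAA motif bound by Stat factors was in 0 of the 12 windows of the family and in 7.02% of all windows. The GC content was 46.0% for Sp5, 59.6% for Sp1, 80.0% for Sp4 and 52.4% at the median of all windows. The windows of Sp8 had 40.8%, 67.2% and 50.0%, so that the first of them lay below Sp5. The motifs were chosen after the sequences were seen, so these shares are descriptive only. They are over all windows and were not matched for GC content. A match describes the letters in the window and does not show that a factor binds there.

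**Figure D1:**
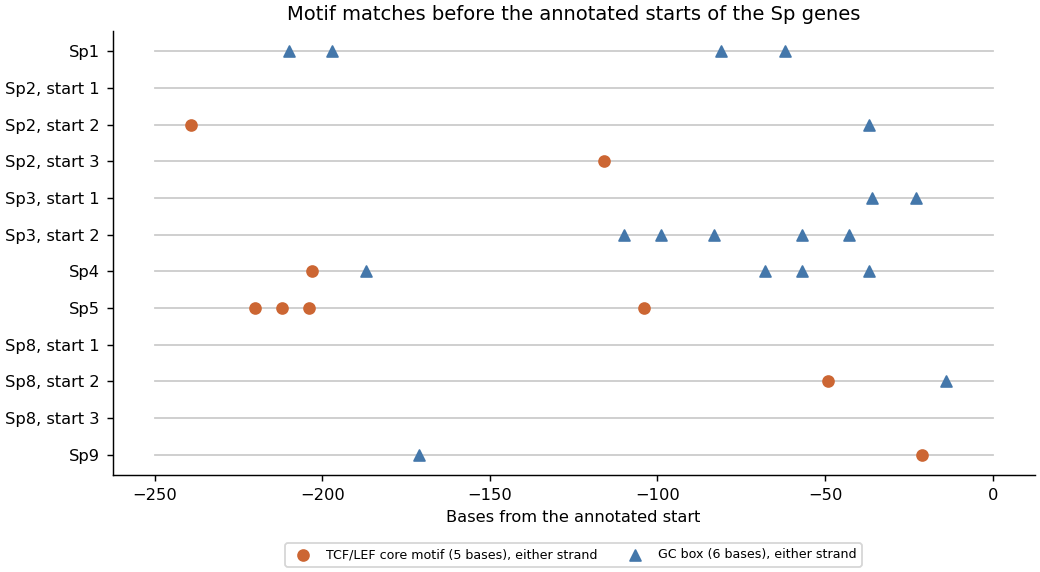
Matches to the TCF/LEF core motif (circles) and the GC box (triangles) on either strand, by distance in bases from each annotated start of 7 Sp genes, with genes that have several starts on several lines. Sp5 is the line with 4 circles and no triangle.

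Sp5 was the member past 1.5-fold, the limit used here. It encodes a short Sp protein that has been described as a repressor as well as an activator of Wnt target genes. Its signal intensity, the background-subtracted brightness of the beads, measured 48.8 in LIF and 809.5 once CHIR was added. The detection p-value compares a signal with negative control beads, 936 of them as judged from the steps of these p-values. In LIF, 14 of the 936 controls were at or above Sp5 (detection p-value 0.0150), and in LIF plus CHIR 0 of them were. Sp5 was therefore not detected in LIF at the limit of 0.01 used here, and was well above background with CHIR. The ratio of the deposited signals was 16.6. The lowest detected signal in LIF among identifiers that appear to have 1 probe was 51.9, which puts the rise of Sp5 at 15.6-fold or more (log2 fold change 3.96). The size depends on how background is treated. After normexp background correction fitted on identifiers with 1 probe, the log2 fold change was 3.61. After the same correction fitted on all identifiers it was 0.75. That second fit put the background SD in LIF at 588.4, against 15.4 in the first. The median signal of all identifiers in LIF was 10.5.

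Sp2 and Sp6 were detected on both arrays and did not pass 1.5-fold. Sp2, which is needed in early embryos and acts together with the CCAAT-binding factor NF-Y, had a signal of 152.9 with LIF and 185.2 with LIF plus CHIR. Its log2 fold change was 0.28. Sp6, also called epiprofin and known for its part in tooth and skin development, had a signal of 177.8 with LIF and 182.1 with LIF plus CHIR. Its log2 fold change was 0.03. As a measure of the spread on these arrays, 748 identifiers detected on both arrays had a brighter signal between 150 and 220. The central 95% of their log2 fold changes ran from -0.70 to 0.66, and Sp2 and Sp6 lay well inside that range. For the 820 identifiers with a brighter signal between 650 and 1000, the central 95% ran from -0.53 to 0.60. Sp5 is among them through its signal with CHIR. Its LIF signal was not detected, so this range does not measure the spread of its ratio. The spread in either band holds real change as well as error, and it comes from different genes rather than from repeats of the same gene.

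Sp8, a gene of limb and forebrain patterning that is also known to respond to Wnt signaling, lay at the edge of detection. The LIF array gave it a signal of 53.1 and the LIF plus CHIR array 39.9. In LIF 8 of 936 controls were at or above it, and with CHIR 23 were. It was thus detected only in LIF, and against the lowest detected 1-probe signal with CHIR (47.1) it was at least 1.13-fold higher in LIF (log2 fold change -0.17). The deposited signals gave a log2 ratio of -0.41. The log2 fold change of -0.17 is within the range of the 1103 identifiers with no signal of 70 or more. The central 95% of their log2 fold changes ran from -0.59 to 0.70. That range was taken after undetected signals were raised to the lowest detected one, so the deposited ratio of -0.41 is an unlike measure. Sp5 and Sp8 are both known as Wnt-responsive genes, and in these arrays the first was past 1.5-fold higher with CHIR and the second was not.

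Sp1, Sp3, Sp4 and Sp7 were detected on neither array. Sp1 and Sp3 are broadly used activators, Sp4 is best known in neurons, and Sp7 (osterix) is required for bone-forming osteoblasts. The signal of Sp1 was 36.6 with LIF and 43.3 with LIF plus CHIR, with detection p-values of 0.0351 and 0.101. In the same order, Sp3 had 11.3 and 1.23, and Sp4 had 7.42 and -2.72. Sp7 was at -3.56 and -4.57, and Sp9 at -8.02 and -10.3. No fold change is given for a gene detected on neither array. All of these signals also lie below the lowest detected 1-probe signals. These genes, and Sp2 and Sp6, appear to be measured by several probes, because their detection p-values are not multiples of 1 in 936. The lowest detected signals of several-probe identifiers were 15.1 in LIF and 14.8 in LIF plus CHIR. Sp1 lay above them on both arrays, and Sp3, Sp4, Sp7 and Sp9 lay below them. The combined p-value of several-probe identifiers does not follow their signal. Sp1 had the higher signal and also the higher p-value in LIF plus CHIR. In LIF, 291 of 584 several-probe identifiers with a signal of at least 1000 had a detection p-value of 0.01 or more, against 0 of 2857 with 1 probe. Not being detected here therefore does not show that Sp1 was absent from the cells. Sp3 and Sp4 had low signals, so these bright identifiers say little about them. Whether Sp3 and Sp4 were absent was not tested.

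**Figure D2:**
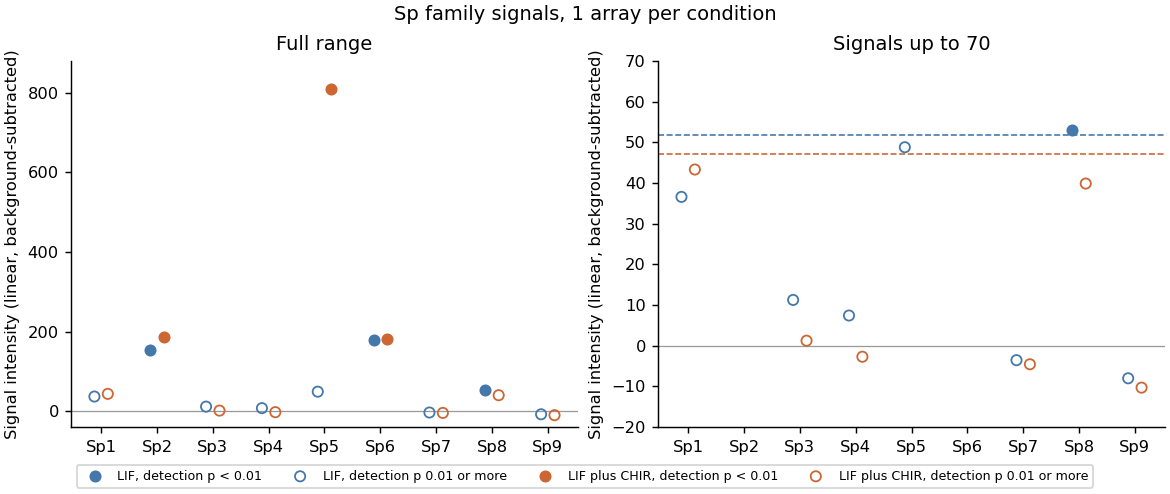
Signal intensity of Sp1 to Sp9 in LIF (blue) and LIF plus CHIR (orange), 1 point per array, filled where the detection p-value was under 0.01, over the full range (left) and up to 70 (right, dashed lines at the lowest detected 1-probe signal of each array). Signals are not comparable between genes, and Sp5 is the gene whose points lie far apart, at 48.8 and 809.5.

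In all, 4 of 8 members were detected on at least 1 array, compared with 31.2% of all identifiers, and 2 on both, compared with 27.9%. Among these 4, 1 (Sp5) was past the limit of 1.5-fold with CHIR, where 3.0% of the 9615 identifiers tested passed, and 0 were past it in the other direction, where 3.16% passed. The median log2 fold change was 0.16 for the 4 members and 0.00 for all identifiers tested. Sp5 had a value only through its detection with CHIR, where it was higher. With detection required on both arrays, 2 members had a value and 0 passed in either direction. For all identifiers this was 203 higher and 227 lower of 8580. Since Sp5 was detected only with CHIR, it shares that class with 1.93% of all identifiers, and Sp8 shares the class detected only in LIF with 1.43%. Both classes rest on the limit of 0.01. The detection p-value was 0.0150 for Sp5 in LIF and 0.0246 for Sp8 with CHIR. At a limit of 0.05 both genes would count as detected on both arrays.

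**Figure D3:**
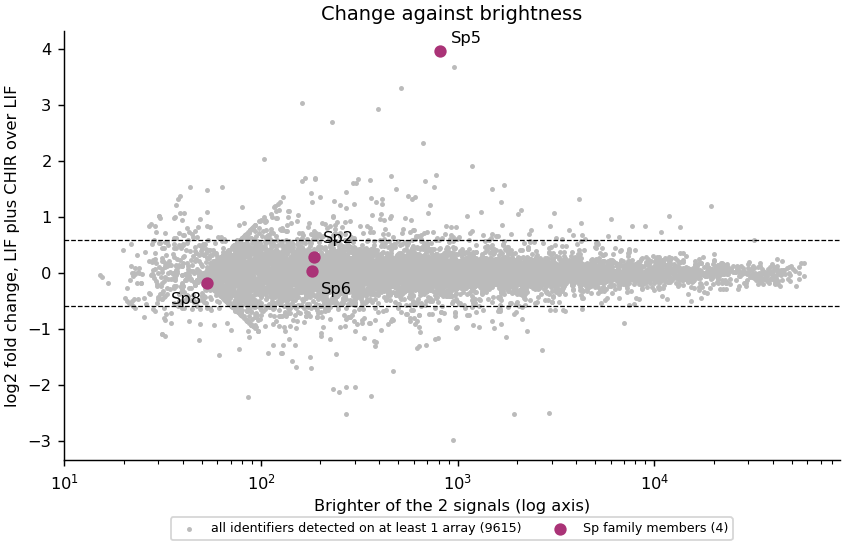
Log2 fold change of LIF plus CHIR over LIF against the brighter of the 2 signals on a log axis, for 9615 identifiers (grey) and the 4 Sp genes with a value (purple), with dashed lines at 1.5-fold. Sp5 lies at 3.96, apart from Sp2, Sp6 and Sp8, which lie between the lines.

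The identifiers nearest to Sp5 in log2 fold change, over the 2 arrays, were Cdx1 (3.68), Krt23 (3.30) and Gad1 (3.03). None of the 9615 had a value above that of Sp5 with the minimum signals used here. With the lowest detected signal over all identifiers as the minimum, Krt23 (5.08) and T (4.71) lay above Sp5 (4.05). Cdx1, a homeobox gene of the posterior embryo and a known Wnt target, had signals of 75.2 and 963.2, both detected. Krt23, a keratin gene with signals of 10.6 and 512.1, and Gad1, which encodes an enzyme that makes the transmitter GABA, were detected only with CHIR. The values of Sp5, Krt23 and Gad1 rest on a signal that was not detected, and therefore have no order among themselves.

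The genes of the family are arranged in pairs on the chromosomes. In the RefSeq gene table, Sp1 lies next to Sp7, Sp2 next to Sp6, and Sp4 next to Sp8, with 0 protein-coding genes between them, and Sp3 is separated from Sp9 by 1 gene. The array annotation gives the genes of each pair the same band (15qF3, 11qD, 12qF2 and 2qC3). Each pair thus joins a long, glutamine-rich Sp gene to a short one. Sp5, on chromosome 2 in band 2qC2, has no family gene among its 5 nearest protein-coding genes on either side. Of the 10 neighbours of Sp5, 4 had a value and 1 was past 1.5-fold. This was Gad1, the second gene to one side, with a signal of 19.8 that became 161.4 with CHIR. The row named Gad1 has no Entrez gene number and was matched by its symbol alone. Its LIF signal was not detected (detection p-value 0.222), and with the 1-probe minimum applied to every identifier its log2 fold change was 1.64. Under normexp correction fitted on all identifiers it was 0.12, which did not pass. Erich2, which lies between Sp5 and Gad1, was detected on neither array, with signals of 15.5 and 12.3. Mettl8, the fifth gene on that side, was detected with CHIR only (77.8 against 42.7 in LIF) and had a log2 fold change of 0.58, just under 1.5-fold. Without a minimum signal it was 0.87, which passed. Gorasp2 and Tlk1, which lie between Gad1 and Mettl8, had 0.04 each. Of the 40 neighbours of the other Sp genes, 23 had a value and 0 passed 1.5-fold in either direction, which is near the share over all identifiers (3.0% higher, 3.16% lower). Their log2 fold changes ran from -0.48 for Itga6 to 0.22 for Map3k20. Itga6 was not detected in LIF (signal 50.0, detection p-value 0.0260), so its value depends on an undetected signal. No difference between the neighbours of Sp5 and those of the other Sp genes was tested.

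**Figure D4:**
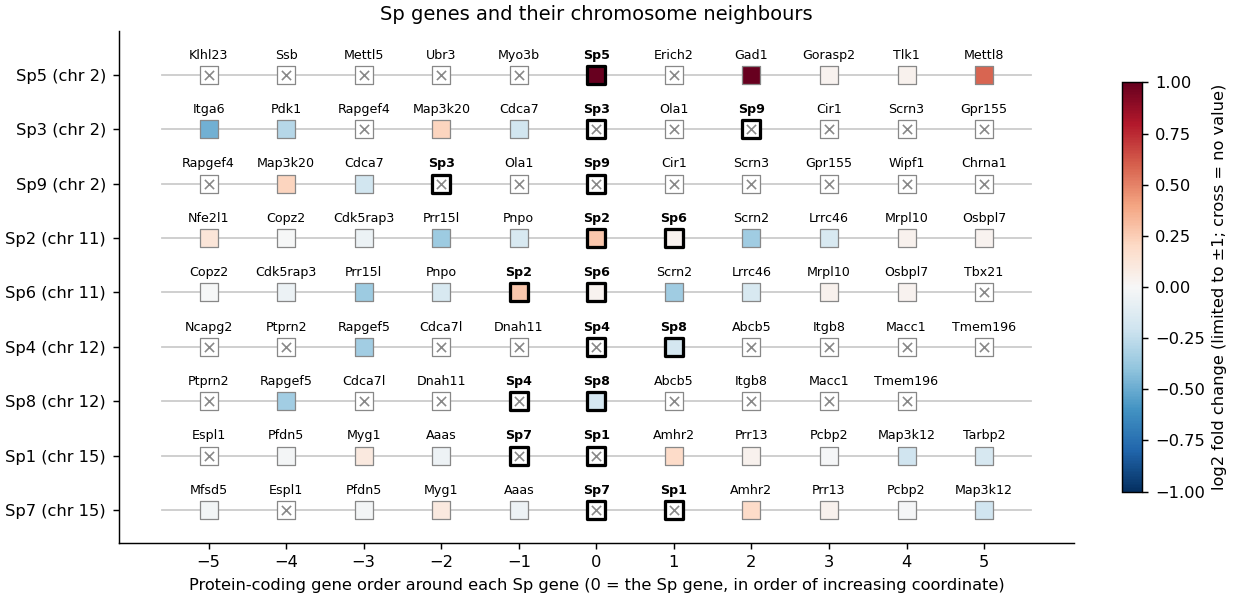
Order of protein-coding genes around each Sp gene, coloured by log2 fold change of LIF plus CHIR over LIF (limited to 1 in either direction), with a cross where there is no value and thick frames for Sp genes. Sp genes other than Sp5 stand beside or near a second Sp gene, and of all neighbours shown Gad1 is the one past 1.5-fold.

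Sp5 was set beside a list of 17 Wnt/β-catenin target genes that includes Sp5 and Sp8. Of the 10 with a value, 5 passed 1.5-fold higher with CHIR and 0 passed lower, beside 3.0% and 3.16% of all identifiers tested. The median log2 fold change was 0.45, beside 0.00. Without Sp5 and Sp8, 4 of 8 were higher. Sp5, T and Tcf7 had a value only through their detection with CHIR, where they were higher. With detection required on both arrays, 6 genes had a value and 2 were higher, Axin2 and Cdx1. For all identifiers this was 203 of 8580. Lef1, Nkd1, Rnf43, Znrf3, Dkk1, Lgr5 and Myc were detected on neither array and had no value. Axin2, a feedback inhibitor of the pathway, went from 314.1 to 1178 (log2 fold change 1.91). T (brachyury), which marks the primitive streak, had 8.05 and 394.5 and was not detected in LIF, so its log2 fold change of 2.93 was taken against the lowest detected signal. Normexp correction gave T 2.60 when fitted on identifiers with 1 probe and 0.31, under 1.5-fold, when fitted on all identifiers. Tcf7, which encodes one of the TCF/LEF factors, had 27.5 and 46.0 and was likewise detected only with CHIR. Its log2 fold change was 0.74, but -0.17 with the 1-probe minimum applied to every identifier, and 0.47 and 0.01 under the same corrections. Ccnd1 (0.15), Notum (0.02), Apcdd1 (0.08) and Nkd2 (-0.20) did not pass. Within this list Sp5 was thus among the genes past 1.5-fold and Sp8 among those that were not.

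The Klf family, whose zinc fingers are the closest relatives of those of Sp proteins, had values for 8 of 17 genes. Klf2, a gene of mESC self-renewal, was higher with CHIR (4332 and 7689, log2 fold change 0.83). Klf4 (965.7 and 1444) had 0.58, just under 1.5-fold. Klf7 was lower (430.3 and 271.8, -0.66, but -0.15 under normexp correction fitted on all identifiers). Thus 1 of 8 was higher and 1 lower, beside 3.0% and 3.16% of all identifiers tested. The median was 0.07, beside 0.00 for all identifiers tested. Klf5, which appears to have several probes, had signals of 7356 and 8295 but no value, because its combined detection p-values were 0.272 and 0.486. Cofactors are proteins that work with Sp factors on DNA. Of 20 cofactor genes, among them histone deacetylases, acetyltransferases, NF-Y subunits and the general factor Tbp, 13 had a value and 0 passed 1.5-fold, a share near that of all identifiers (3.0% higher, 3.16% lower). Their log2 fold changes lay between -0.17 (Hdac2) and 0.14 (Ogt, which adds sugar to Sp1), with a median of -0.03.

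**Figure D5:**
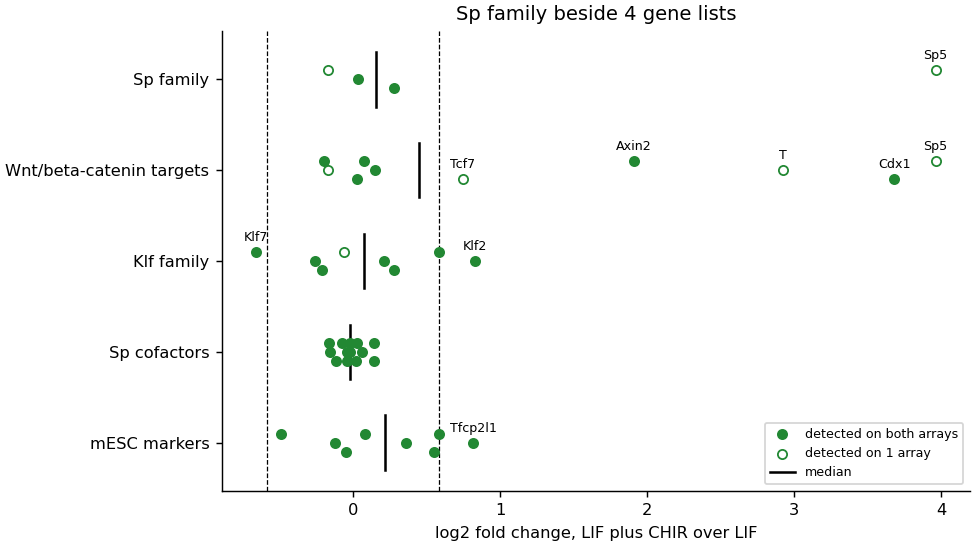
Log2 fold change of LIF plus CHIR over LIF for the genes with a value in the Sp family and 4 other lists, filled where detected on both arrays, with a black line at each median and dashed lines at 1.5-fold. Sp5 lies at the far right with Cdx1 and T, and the 13 cofactors lie close to 0.

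Marker genes were read as a check on the label of the cells. Of 10 mESC markers, 8 were detected on both arrays, compared with 27.9% of all identifiers. Pou5f1 was at 12346 and 11309, and Tfcp2l1 passed 1.5-fold with CHIR (log2 fold change 0.82). Sox2 (441.2 and 400.2, several probes) and Tdgf1 (26.6 and 14.6) did not pass the detection limit. Of 14 markers of feeder fibroblasts, primitive endoderm and neural cells, 0 were detected, compared with 31.2% of all identifiers on at least 1 array. The signal of Thy1 among the 14 was 222.3 and 225.3, with combined detection p-values of 0.354 and 0.302. The others were at or below 43.8 on both arrays.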

How the data were processed

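Each of 2 Illumina arrays took RNA of mESCs in 1 condition, LIF or LIF plus CHIR, as the labels give it. The authors deposited a signal intensity per identifier and array, already background-subtracted (11742 identifiers below 0 in LIF) and nearly equal in distribution (median 10.5 and 10.4). Software and normalization are not given in the sources used here. Each deposited signal comes with a detection p-value. Of 30774 identifiers, 23355 had p-values that were multiples of 1 in 936 (within 0.002 controls) on both arrays and were treated as having 1 probe, and the other 7419 as having several. The shorter table of 11702 identifiers, described as normalized, had 0 differing values.

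Python 3.11.15 was used with numpy 2.4.6 and pandas 2.3.3 for fold changes and matplotlib 3.10.9 for plots. An identifier was tested, that is given a value, where either array had a detection p-value under 0.01. An undetected signal was raised to the lowest detected signal of its array among identifiers with as many probes (1 probe, 51.9 in LIF and 47.1 in LIF plus CHIR; several, 15.1 and 14.8). The fold change is then a bound, or depends on an undetected signal. The limit was 1.5-fold. The calculation was tested on simulated data of 1-probe identifiers, with changes placed only in signals well above background. Changes from an undetected signal, and identifiers with several probes, were not covered. Genes of lists and neighbours were looked up in the RefSeq gene table (GRCm38.p6) and matched by their Entrez number, otherwise by symbol. Alternatives included normexp correction with limma 3.58.1 in R 4.3.3 and an offset of 16. No test across samples was possible.

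The text names all members and Sp9, list and neighbour genes past 1.5-fold, defining markers, and the identifiers nearest to Sp5 in log2 fold change. Other genes, and the motifs searched, were chosen after their values or sequences were seen. The members and lists were chosen with earlier results of these data known.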

Additional observations from a re-analysis of the deposited data

How the results depend on the processing

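No paired analysis was possible because there is only 1 array for LIF and 1 for LIF plus CHIR. For Sp5 the log2 fold change moved from 3.96 to 0.75 under normexp correction fitted on all identifiers, whose fitted background SD (585.8 in LIF plus CHIR) was far above that fitted on 1-probe identifiers (15.4). Under the other alternatives that gave it a value it lay between 3.61 and 4.05. Where detection was required on both arrays, Sp5 had no value and 0 members were at least 1.5-fold higher. With the detection limit at 0.05, Sp5 and Sp8 counted as detected on both arrays, and Sp1 gained a log2 fold change of 0.24. Sp2, Sp6 and Sp8 did not pass 1.5-fold under any alternative that gave them a value.

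Of the lists, normexp correction fitted on all identifiers left 3 Wnt/β-catenin targets higher in place of 5 and 0 Klf genes lower in place of 1, with 2 mESC markers higher in place of 1. Detection on both arrays left 2 Wnt/β-catenin targets. A limit of 2-fold left 0 Klf genes in either direction and 0 mESC markers. Over all identifiers, the counts of 288 higher and 304 lower became 59 and 47 under normexp fitted on all identifiers, 479 and 519 with the detection limit at 0.05, 203 and 227 with detection on both arrays, and 78 and 54 at 2-fold. Detection by signal and a 1-probe minimum for every identifier were added after seeing the data. They gave 275 higher and 311 lower, and 295 and 311. The latter turned the log2 fold change of Tcf7 from 0.74 to -0.17, because its signal with CHIR (46.0) lies under that minimum in LIF (51.9).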

Other observations

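The combined detection p-value removes many bright genes with several probes from every comparison in which it is used. In LIF plus CHIR, 301 of 592 several-probe identifiers with a signal of at least 1000 had a detection p-value of 0.01 or more, against 0 of 2849 with 1 probe. Among genes tied to Sp function, Nfyc (5526 with LIF, 5718 with LIF plus CHIR) and Ep300 (987.8 and 1011) had no value for this reason. These genes were named after their values were seen.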
